A study of Homo sapiens with 13 samples.

Results

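The HES and HEY genes encode a family of transcriptional repressors. Of the 61541 human genes listed, the 10 family members named HES1, HES2, HES4, HES5, HES6, HES7, HEY1, HEY2, HEYL and HELT were followed in both count tables, and they were picked by name, by a rule that used no measured value but was written with earlier results of these data known. They were measured by bulk RNA-seq in GFP::SMAD4 RUES2 cells. RUES2 is an established line of human embryonic stem cells, and the tag is a fluorescent label on SMAD4, the signal carrier shared by the BMP and Nodal pathways. For the time series, cells were given BMP4 (100 ng/mL) together with IWP2 (5 µM), an inhibitor of Wnt secretion, and 7 libraries were made, a pair at 0 h and then 1 for every later time of 4, 12, 20, 28 and 42 h. The dose response held 6 libraries made at 5 h. Cells in 5 of them received the same BMP4 and IWP2 with 0, 10, 30, 100 or 300 nM LDN, an inhibitor of BMP receptors, and the sixth was of untreated cells in the stem cell medium without BMP4 or IWP2. The labels of the 0 h libraries name the BMP4 and IWP2 treatment, and these cells were read as collected when treatment started. All libraries came from 1 tagged line, and nothing in the sources says that the 0 h libraries were separate cultures, so p-values measure only the spread between these libraries, which may be technical.

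HES and HEY proteins share a basic helix-loop-helix domain and an Orange domain. Several of them are known as immediate targets of Notch signaling, in which the cleaved receptor enters the nucleus and joins the DNA-binding protein RBPJ. Several also respond to BMP signaling. HES proteins bind N-box and related class C sites, recruit TLE corepressors, and repress genes for proneural activators. HES1 also represses its own gene, which underlies its pulsed expression in progenitor cells.

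The members with high expression were few. A CPM is a count scaled to the size of its library. TMM factors were used in this scaling, except in the filter for tests, which used library totals. In each experiment 5 of 10 members, HES1, HES6, HEY1, HEY2 and HEYL, reached the mean of 1 CPM that was required for a test. HES2, HES4, HES5, HES7 and HELT did not. The libraries held 37956244 to 71331540 counts on genes in the time series and 15600645 to 33989489 in the dose response, so that 3 counts, taken as the floor of detection, amounted to 0.0411 to 0.0780 CPM and 0.0877 to 0.201 CPM. The share of counts on mitochondrial genes was 7.60% for 0 h replicate 1, 7.89% for untreated cells and between 2.01 and 4.49% for the remaining 11. The pluripotency marker SOX2 was at 384 and 366 CPM at 0 h and at 13.5 CPM at 42 h. The 5 pluripotency markers looked at did not move alike. Their log2 differences at 42 h from 0 h were -6.68 for NANOG, -4.80 for SOX2, -2.63 for DPPA4, -0.49 for LIN28A and -0.011 for POU5F1. GATA3, a marker of amnion-like cells, went from 0.156 and 0.192 CPM at 0 h to 372 CPM at 42 h. Among markers of other cell types, the primitive streak marker TBXT and the neural progenitor markers SOX1 and PAX6 did not exceed 1.17 CPM in any library. EOMES, also a marker of primitive streak, rose from 0.208 and 0.301 CPM at 0 h to 3.54 CPM at 20 h (log2 3.74, SE 0.49, edgeR adjusted p = 8.70e-13) and was at 0.340 CPM at 42 h. The neural progenitor marker NES was at 275 to 427 CPM in the time series and passed no contrast with 0 h. The endoderm marker FOXA2 was at 3.15 and 2.85 CPM at 0 h and at most 0.166 CPM later, and SOX17 did not exceed 1.54 CPM. The part of these cell types in the members' changes was not tested. In bulk RNA fewer cells of a type and less RNA per cell cannot be told apart.

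The 250 bases before the RefSeq transcription start (GRCh38.p14) are shown for HES1 and HEY2, the abundant members that moved in opposite directions, and for HES5, a rare member with a short peak at 4 h. Capitals mark TGGGAA or its reverse complement TTCCCA, the core of the RBPJ site. The start used for HEY2 lies inside the gene as GENCODE 44 draws it. The HES1 window is chr3:194135898-194136147 on the plus strand, the HEY2 window is chr6:125749382-125749631 on the plus strand, and the HES5 window is chr1:2530264-2530513 on the minus strand.
HES1: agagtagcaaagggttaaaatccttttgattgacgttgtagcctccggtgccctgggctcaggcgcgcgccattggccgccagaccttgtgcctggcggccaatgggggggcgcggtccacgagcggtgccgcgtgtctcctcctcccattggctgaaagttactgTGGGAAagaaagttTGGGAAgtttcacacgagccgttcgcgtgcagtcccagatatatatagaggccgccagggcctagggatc
HEY2: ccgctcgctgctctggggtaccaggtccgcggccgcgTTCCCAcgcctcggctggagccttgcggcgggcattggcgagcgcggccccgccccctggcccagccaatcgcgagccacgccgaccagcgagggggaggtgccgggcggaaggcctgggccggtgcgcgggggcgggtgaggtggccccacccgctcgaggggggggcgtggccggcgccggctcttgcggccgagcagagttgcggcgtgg
HES5: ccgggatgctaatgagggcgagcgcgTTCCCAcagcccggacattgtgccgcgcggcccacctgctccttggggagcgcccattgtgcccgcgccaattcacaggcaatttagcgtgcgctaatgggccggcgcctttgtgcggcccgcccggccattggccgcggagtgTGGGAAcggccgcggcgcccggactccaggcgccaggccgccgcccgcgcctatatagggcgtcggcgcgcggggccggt

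Windows were held for 9 of the 10 members, and HEY1 had none. TGGGAA, searched on both strands, had 2 matches each in HES1, HES5 and HEYL, 1 each in HES4, HEY2 and HELT, and 0 in HES2, HES6 and HES7. Of all 35116 promoter windows, 20.8% held at least 1 match and 2.90% at least 2. In HES1 the matches began 84 and 70 bases before the start, in HEY2 213 bases before it. HES1, which rose after BMP4, and HEY2, which fell, thus both held a match. The N-box CACNAG had 3 matches in HES1 and 1 in HES7, against 32.0% of all windows with at least 1, and the class C site CACGNG had 4 in HES1 and 1 in HES7, against 26.7%. The letters overlap, since CACGAG is both, and 2 of the HES1 positions and the HES7 position were the same match. GGCGCC, a GC-rich sequence bound by SMAD proteins, had 3 matches each in HES5 and HEYL, 1 each in HES2, HEY2 and HELT, and 0 in HES1, HES4, HES6 and HES7, against 16.4% of all windows. All are matches of letters and not measured binding.

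Within 4 h of BMP4 with IWP2, HES1 and HEY1 rose and HEY2 fell. HES1, the best-known effector of Notch in progenitor cells (chromosome 3, 194136148 to 194138732, plus strand, GRCh38), stood at 8.76 and 9.31 CPM at 0 h, at 47.8 CPM at 4 h, 55.8 CPM at 12 h, 83.8 CPM at 20 h, 65.2 CPM at 28 h and 53.6 CPM at 42 h. Every later library was above both 0 h libraries, and the 20 h library was the highest. The log2 difference from 0 h was 2.40 at 4 h (SE 0.32, edgeR quasi-likelihood test, adjusted p = 4.39e-12) and 3.21 at 20 h (SE 0.32, adjusted p = 5.08e-22). HES1 was still 2.57 higher on the log2 scale at 42 h (SE 0.32, edgeR adjusted p = 9.42e-15). The decline after 20 h rested on 1 library at each time and was not tested.

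HEY1, a Hairy-related repressor known from the developing vasculature and heart (chromosome 8, 79762371 to 79767857, minus strand), showed the largest change among the 5 tested members. Its level was 0.910 and 1.18 CPM at 0 h, 17.1 CPM at 4 h, 29.6 CPM at 12 h, 21.4 CPM at 20 h, 14.6 CPM at 28 h and 32.4 CPM at 42 h. The groups did not overlap, and the 2 highest libraries, at 12 and 42 h, were separated by lower ones at 20 and 28 h. The log2 difference from 0 h was 4.01 at 4 h (SE 0.33, edgeR adjusted p = 1.07e-31) and 4.93 at 42 h (SE 0.33, adjusted p = 7.27e-48). At 4 h, 65 of the 15976 genes tested had a higher estimate than HEY1 and 188 a higher one than HES1.

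HEY2, the paralogue known for its role in the ventricular heart muscle (chromosome 6, 125747664 to 125761269, plus strand), moved the other way. It was at 47.6 and 40.5 CPM at 0 h, 10.8 CPM at 4 h, 11.2 CPM at 12 h, 14.1 CPM at 20 h, 19.7 CPM at 28 h and 21.2 CPM at 42 h. All later libraries lay below both 0 h libraries, with the lowest value at 4 h and higher values at each time after it. HEY2 fell by 2.03 on the log2 scale at 4 h (SE 0.34, edgeR adjusted p = 2.69e-07), and 30 of the 15976 genes had a lower estimate. At 42 h it was still below 0 h, by a log2 difference of -1.06 (SE 0.32, edgeR adjusted p = 0.00448). At 4 h, 2 of the 5 tested members rose and 1 fell, where 4.39% and 0.632% of all genes tested were called. At 42 h, 2 rose and 2 fell, where 19.9% and 17.8% of all genes were called in those directions.

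**Figure D1:**
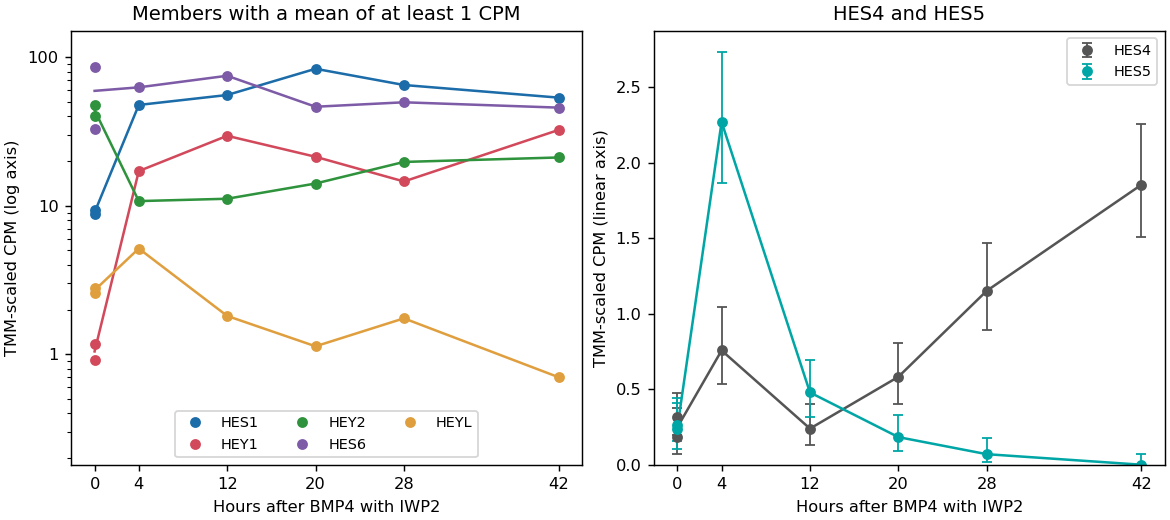
TMM-scaled CPM against hours after BMP4 with IWP2, with the 5 members tested on a log axis at left and the rare members HES4 and HES5 on a linear axis at right. Points are libraries (2 at 0 h, 1 at each later time), lines run through the 0 h mean, and bars at right are exact 95% Poisson intervals of the count. HES1 and HEY1 are above both 0 h libraries at all later times and HEY2 is below them, while HES5 peaks at 4 h with 2.27 CPM.

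HEYL, another HEY paralogue, was expressed at a low level (chromosome 1, 39623435 to 39639643, minus strand). It was at 2.81 and 2.59 CPM at 0 h, 5.15 CPM at 4 h, 1.81 CPM at 12 h, 1.13 CPM at 20 h, 1.74 CPM at 28 h and 0.70 CPM at 42 h. The 4 h library was the highest, and all libraries from 12 h on lay below both 0 h libraries. The difference at 4 h did not pass the test (log2 0.93, SE 0.42, edgeR adjusted p = 0.283). HEYL was lower than at 0 h at 20 h (log2 -1.25, SE 0.47, edgeR adjusted p = 0.0422) and at 42 h (log2 -1.94, SE 0.50, adjusted p = 0.000520). The 42 h value rested on 37 counts.

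HES6, which is known to oppose HES1, was abundant and irregular (chromosome 2, 238238267 to 238240662, minus strand). It was at 32.7 and 86.3 CPM at 0 h, 62.8 CPM at 4 h, 75.2 CPM at 12 h, 46.5 CPM at 20 h, 49.8 CPM at 28 h and 45.9 CPM at 42 h. All later libraries lay between the 0 h libraries, which differed from each other more than from any later library. No contrast with 0 h passed the test, and the log2 difference at 42 h was -0.38 (SE 0.33, edgeR adjusted p = 0.399). Its direction turned to 0.48 when 0 h replicate 2 was left out. The low 0 h library was the one with 7.60% mitochondrial counts, and the part of this in HES6 was not tested. For HES1, HEY1 and HEY2, leaving out either 0 h library moved the log2 ratio at 42 h little, to between 2.46 and 2.54 for HES1, 4.30 and 4.55 for HEY1, and -1.15 and -0.92 for HEY2.

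Over all time points, 4 of the 5 tested members differed, all but HES6, where 34.9% of all genes tested were called. The edgeR adjusted p was 7.90e-22 for HES1, 8.89e-50 for HEY1, 1.34e-12 for HEY2, 1.76e-06 for HEYL and 0.564 for HES6. With a straight line in hours, which fits a steady change and not a fast step, 0 members rose and 1 fell, where 19.2% and 17.5% of all genes were called. HES1 and HEY1 were the tested members with a positive slope. With the filter, neither had an unadjusted p under 0.05 in edgeR, and DESeq2 also called 0 rising. The member that fell was HEYL, with a log2 slope of -0.51 per 10 h (SE 0.14, edgeR adjusted p = 0.0217), and without the 42 h library its adjusted p was 0.132. HES1 had a slope of 0.50 per 10 h (SE 0.26, adjusted p = 0.163) and HEY1 of 0.60 (SE 0.37, adjusted p = 0.230). Without the filter, the unadjusted edgeR p of the line was 0.0229 for HES1, 0.0479 for HEY1 and 0.0299 for HES7. None of these passed after adjustment (0.0992, 0.165 and 0.120). The rare member HES4 rose in that fit (log2 slope 0.61 per 10 h, SE 0.14, edgeR adjusted p = 0.00873). On the log2 scale HES1 and HEY1 differed from 0 h by 2.40 and 4.01 at 4 h, and by 2.57 and 4.93 at the last time. In the fit by time points, the error came from a spread shared across genes with 1 residual degree of freedom, so a gene's own scatter at a later time could not be measured.

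The rare members had too few counts for the tests above. Fits that kept all genes were used for them. HES5, an effector of Notch in neural progenitors, had 9 and 19 counts at 0 h, and 111, 28, 11, 4 and 0 counts in the later libraries in order of time. In CPM it went from 0.234 and 0.260 at 0 h to 2.27 at 4 h (95% Poisson interval 1.87 to 2.73), and was at or below 0.478 in each later library. The count of 0 at 42 h has a 95% Poisson upper limit of 0.0698 CPM. HES5 rose by 3.10 on the log2 scale at 4 h (SE 0.51, edgeR adjusted p = 2.52e-07 without the filter), and its difference at 42 h passed as well (adjusted p = 0.000417).

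HES4, which mouse lacks, rose late. It had 7 and 23 counts at 0 h, and 37, 14, 35, 66 and 98 counts in the later libraries in order of time, the last equal to 1.85 CPM (95% Poisson interval 1.505 to 2.259). The 28 h and 42 h libraries were the highest. Without the filter HES4 was higher than at 0 h at 28 h (log2 2.15, SE 0.49, edgeR adjusted p = 0.000225) and at 42 h (log2 2.90, SE 0.48, adjusted p = 2.68e-08). HES7, known from the segmentation clock of the embryo, had 6 and 16 counts at 0 h, and 2, 4, 24, 32 and 21 counts later. It differed over the time points (edgeR adjusted p = 0.000971 without the filter), but no contrast with 0 h passed, the lowest adjusted p being 0.121 at 28 h. HES2 had 4 to 14 counts in the time series and HELT 0 to 5, and neither passed any of these tests.

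At 5 h, HEY1 and HES1 fell with LDN and HEY2 rose. Slopes are given on the log2 scale per step from 0 to 10, 30, 100 and 300 nM LDN, all with BMP4 and IWP2. Each dose was 1 library, and the error was taken from the scatter of the 5 libraries about the fitted line. HEY1 was at 29.8 CPM at 0 nM, 16.6 CPM at 10 nM, 8.31 CPM at 30 nM, 4.48 CPM at 100 nM, 2.65 CPM at 300 nM, beside 3.09 CPM for untreated cells. Each dose step had a lower HEY1 level than the step before, and the 300 nM library was close to the untreated one. The HEY1 slope was -0.89 per step (SE 0.03, edgeR adjusted p = 5.39e-09), and 28 of 14907 genes tested had a lower one.

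HES1 was at 35.2 CPM at 0 nM, 31.4 CPM at 10 nM, 27.7 CPM at 30 nM, 17.3 CPM at 100 nM, 12.6 CPM at 300 nM, beside 10.7 CPM for untreated cells. The order was the same as for HEY1, with a smaller drop at the low doses. HES1 fell by 0.37 per step (slope -0.37, SE 0.04, edgeR adjusted p = 1.56e-05). HEY2 was at 7.76 CPM at 0 nM, 9.35 CPM at 10 nM, 8.46 CPM at 30 nM, 12.7 CPM at 100 nM, 14.5 CPM at 300 nM, beside 21.8 CPM for untreated cells. Its higher levels were at 100 and 300 nM, and all 5 lay below the untreated library. The HEY2 slope was 0.23 per step (SE 0.04, edgeR adjusted p = 0.00104), and 146 of 14907 genes had a higher one.

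HES6 was at 72.2, 77.0, 67.0, 66.7 and 61.5 CPM from 0 to 300 nM and at 28.3 CPM in untreated cells. The untreated library stood apart from all 5 doses. HES6 fell by 0.067 per step (slope -0.067, SE 0.017, edgeR adjusted p = 0.0120), a small slope that was lost without the 300 nM library (adjusted p = 0.145) and with FPKM in limma (adjusted p = 0.105). HEYL was at 1.99, 1.87, 2.48, 2.82 and 2.44 CPM from 0 to 300 nM and at 3.49 CPM in untreated cells. Its slope of 0.12 (SE 0.07) did not pass (edgeR adjusted p = 0.237). In all, 1 tested member rose and 3 fell per LDN step, where 10.4% of all genes rose and 10.9% fell.

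Among the rare members, HES5 had 15, 12, 11, 6 and 0 counts from 0 to 300 nM and 0 in untreated cells. It fell per LDN step without the filter (slope -0.73, SE 0.23, edgeR adjusted p = 0.0316). HES4 had 8, 15, 14, 21 and 8 counts from 0 to 300 nM and 0 in untreated cells, with no slope past the test (0.059, SE 0.17, adjusted p = 0.901). HES2, HES7 and HELT had at most 5 counts in any library of the dose response.

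**Figure D2:**
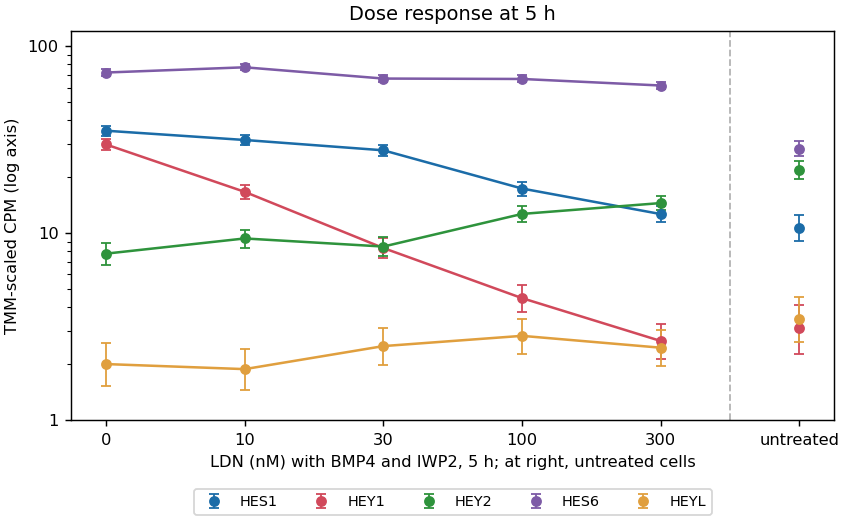
TMM-scaled CPM on a log axis for the 5 tested members at 5 h, by LDN dose in nM with BMP4 and IWP2, and at right in untreated cells. Each point is 1 library and bars are exact 95% Poisson intervals of the count, which cover counting error only. HEY1 and HES1 decrease toward the untreated level with LDN, HEY2 increases without reaching it, and HES6 is lower in the untreated library than at any dose.

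The 0 nM and untreated libraries differ in both BMP4 and IWP2, whose parts cannot be told apart, and each is 1 library, so these differences were not tested. On the log2(CPM + 0.5) scale, HEY1 was 3.08 higher with BMP4 and IWP2, HES1 1.68 higher and HES6 1.33 higher, while HEY2 differed by -1.43 and HEYL by -0.68. Of the tested members 3 were past 1 in size upward and 1 downward, as were 4.05% and 1.96% of all genes. For HES6, the untreated library was the low one, and it was also the one with 7.89% mitochondrial counts.

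**Figure D3:**
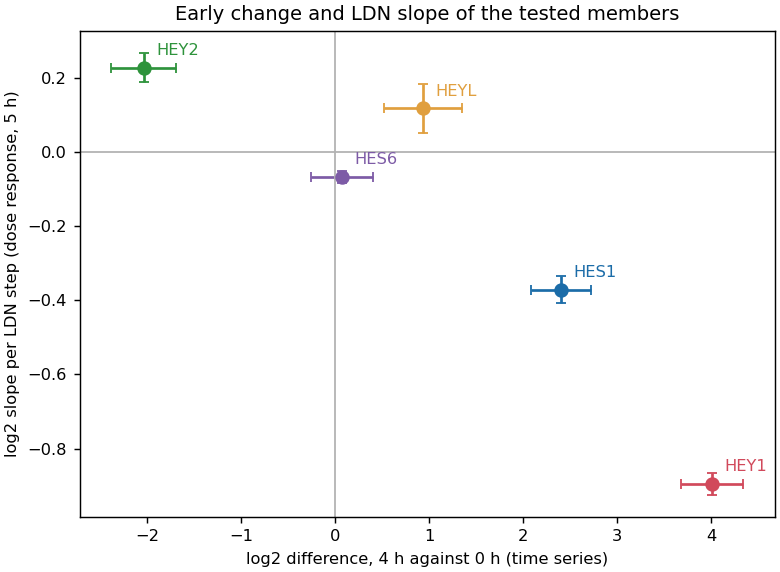
Log2 difference at 4 h from 0 h in the time series (horizontal axis) against log2 slope per LDN step at 5 h (vertical axis) for the 5 tested members, with standard errors from edgeR as bars. HEY1 and HES1 lie at high early change and negative slope, HEY2 at the opposite corner, and HES6 near the origin. HEYL is positive on both axes (0.93 and 0.12), with neither value past its test.

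The share of the 5 h difference that remained under LDN was computed as the level above untreated cells in percent of that at 0 nM. At 10, 30, 100 and 300 nM, HEY1 kept 50.7%, 19.6%, 5.24% and -1.65%. HES1 kept 84.5%, 69.3%, 27.0% and 7.97% at the same doses. The HEY2 difference, which is downward, remained at 88.6%, 94.97%, 65.2% and 52.3%. HEY1 was thus reduced at the lowest dose to a share that HES1 passed between 30 and 100 nM, whereas HEY2 still kept over 50% of its difference at 300 nM. Among BMP target genes, the inhibitory SMAD gene SMAD6 kept 60.2%, 33.2%, 14.8% and 4.76%, and ID1, which encodes an inhibitor of helix-loop-helix factors, kept 95.1%, 79.4%, 56.0% and 31.5%. All these shares use the same untreated library, and differences between genes in them were not tested.

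**Figure D4:**
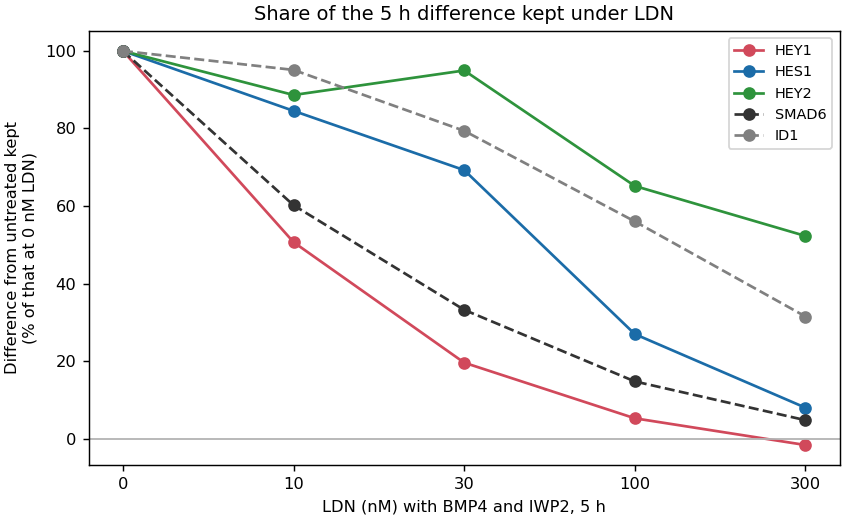
Difference from untreated cells kept at each LDN dose at 5 h, in percent of the difference at 0 nM, for HEY1, HES1 and HEY2 (solid lines) and the BMP targets SMAD6 and ID1 (dashed lines). Each point is from 1 library, with no error bar. The HEY1 line is the lowest at every dose above 0 nM, and the HEY2 line stays above 50%.

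Ratios of counts between paralogues were also taken within each library, and no scaling between libraries can change them. A ratio also shifts when a single gene moves, so it does not by itself show opposite movement. The HEY1 to HEY2 ratio was 0.0191 and 0.0291 at 0 h, and 1.59, 2.66, 1.51, 0.739 and 1.53 in the later libraries in order of time. Counts are not scaled for gene length, so these ratios do not show which gene was at the higher level. At 28 h, HEY1 was at 8.71 FPKM against 8.09 FPKM for HEY2. With LDN the ratio was 3.84, 1.78, 0.982, 0.354 and 0.183 from 0 to 300 nM and 0.142 in untreated cells. It was lower at each dose than at the dose before. The HES1 to HEY2 ratio was 0.184 and 0.230 at 0 h and 2.53 to 5.93 later. With LDN it was 4.54, 3.36, 3.27, 1.37 and 0.873 from 0 to 300 nM and 0.489 in untreated cells. HEY1 and HES1 did not move in proportion, since the HEY1 to HES1 ratio was 0.844, 0.528, 0.300, 0.259 and 0.210 from 0 to 300 nM and 0.289 in untreated cells. These ratios are given as a description, because the opposite directions of the paralogues were known when the members were picked.

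Levels of different genes were compared only per length, in the FPKM values of the authors. HES6 was the highest member at 0 h, at 60.2 ± 38.3 FPKM (SD, n = 2), followed by HEY2 at 19.1 ± 2.05, HES1 at 7.27 ± 0.368, HEYL at 0.725 ± 0.035, HEY1 at 0.635 ± 0.233 and HES4 at 0.370 ± 0.184. HES5, HES7, HES2 and HELT had means of 0.240 FPKM or less. The HEY1 values overlapped those of HEYL and HES4, while HES6, HEY2, HES1 and HEYL did not overlap with each other. HES6 and HEY2 were kept apart by less in 0 h replicate 1, where they were at 33.1 and 20.6 FPKM, than in replicate 2, at 87.3 and 17.7 FPKM. From 4 h on HES1 replaced HEY2 as the runner-up or passed HES6. It was at 64.8 FPKM at 20 h against 44.2 for HES6, and at 35.9 FPKM at 42 h against 38.0. HEY1 was the third from 4 h on, with 15.8 FPKM at 42 h against 7.73 for HEY2.

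Summed over the 10 members, the level was 62.8 and 115 FPKM at 0 h and 100.5 to 144 FPKM later, so the total did not separate 0 h from the later libraries. The makeup of the total did. HEY2 took 32.8% and 15.3% of it at 0 h and 3.43 to 7.69% later, HES1 took 11.2% and 6.53% and later 31.2 to 50.3%, and HEY1 took 0.749% and 0.694% and later 7.59 to 15.7%. In the dose response the sum was 120, 118, 98.0, 89.5 and 79.7 FPKM from 0 to 300 nM and 43.0 FPKM in untreated cells. These sums and ranks leave out HES3, a HES gene that is not among the 10 members. HES3 was at 80.5 and 94.8 FPKM at 0 h, above the HES6 mean, and at 0 FPKM at 42 h. With LDN it was at 2.90, 6.68, 13.07, 21.45 and 35.2 FPKM from 0 to 300 nM and at 56.0 FPKM in untreated cells. It thus rose with LDN where the sum of the members fell.

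**Figure D5:**
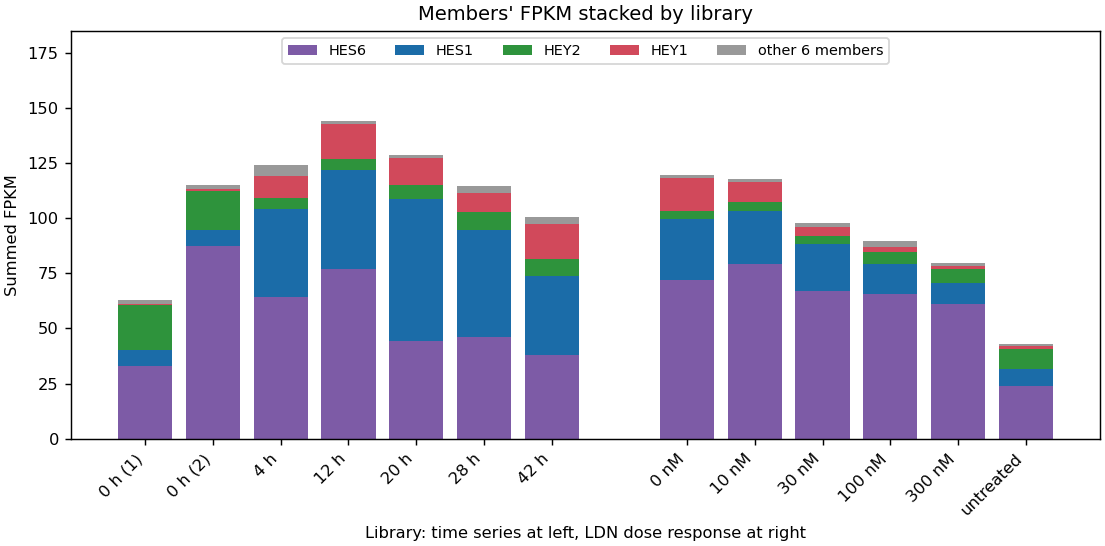
FPKM of HES6, HES1, HEY2, HEY1 and the other 6 members stacked for each library, with the time series at left and the LDN dose response at right. Every bar is 1 library, and (1) and (2) are the 0 h replicates. HES6 makes up much of each bar, HEY2 is broad at 0 h and in untreated cells, and HES1 and HEY1 are broad after BMP4.

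The genes whose profile was most like that of a member were found by Pearson's r of log2(CPM + 1) over 12 points, 6 time points and 6 dose response libraries, each centred within its experiment, among 9508 genes. For HES1 they were the netrin receptor gene UNC5B (r = 0.994), SDK2 (r = 0.988) and RNF217 (r = 0.984). For HEY1 they were ZNF587 (r = 0.971), NBEAL1 (r = 0.967) and the kinase gene MAP3K1 (r = 0.957). For HEY2 they were the transcription factor gene MYC (r = 0.958), the arginine methyltransferase gene PRMT1 (r = 0.951) and KDSR (r = 0.945). For HES6 they were HIRIP3 (r = 0.978), HNRNPM (r = 0.933) and NEIL2 (r = 0.929). Between members, r was 0.915 for HES1 with HEY1, -0.843 for HES1 with HEY2 and -0.816 for HEY1 with HEY2. The points share libraries and scaling, and each named gene is the top of many, so these values describe likeness only.

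Genes of the Notch pathway and partners of the family are counted beside the 10.4% of all genes tested that rose and the 10.9% that fell per LDN step. Genes of the Notch pathway moved in both directions. Of 4 Notch ligands tested, 2 rose and 1 fell per LDN step, of 4 receptors 2 rose, and of 6 genes of the nuclear complex 1 rose. The median slopes were 0.11, 0.045 and 0.022, against -0.00068 for all genes tested. The ligand genes DLL1 (slope 0.21, SE 0.07, edgeR adjusted p = 0.0486) and DLL3 (slope 0.20, SE 0.05, adjusted p = 0.0222) rose and JAG2 fell (slope -0.13, SE 0.03, adjusted p = 0.0228). The receptor genes NOTCH1 (slope 0.12) and NOTCH3 (slope 0.043) and the gene of their nuclear partner RBPJ (slope 0.12, SE 0.01, edgeR adjusted p = 5.78e-06) rose with LDN, in the direction of HEY2 and opposite to HES1 and HEY1. At 42 h the ligand genes parted, with log2 differences from 0 h of 3.14 for DLL1, 0.68 for JAG1, -0.58 for JAG2 and -2.45 for DLL3. Those of the receptor genes were -2.14 for NOTCH1, -0.80 for NOTCH2, -0.058 for NOTCH3 and -0.76 for NOTCH4. Over time DLL1 was at 6.03 and 6.56 CPM at 0 h, 1.86 CPM at 4 h, 2.60 CPM at 12 h, 9.61 CPM at 20 h, 41.2 CPM at 28 h and 55.8 CPM at 42 h. It was lower than 0 h at 4 h (log2 -1.76, edgeR adjusted p = 5.9e-05) and higher at 42 h (log2 3.14, adjusted p = 9.8e-24). NOTCH1 was lower at 42 h (log2 -2.14, adjusted p = 9.5e-08), as was RBPJ (log2 -1.36, adjusted p = 0.00068).

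Of 7 Notch modifiers and feedback genes tested, 3 rose and 1 fell per LDN step, beside 10.4% and 10.9% of all genes, with a median slope of 0.0078. NRARP, a Notch-induced inhibitor of the pathway, rose (slope 0.15, SE 0.02, edgeR adjusted p = 3.2e-05), as did DTX4 (slope 0.14) and RFNG (slope 0.065). DTX1, a Deltex gene, fell (slope -0.23, SE 0.03, edgeR adjusted p = 7.43e-05), and it had risen at 4 h (log2 1.83, adjusted p = 7.5e-08). NRARP thus had the sign of HEY2, and DTX1 that of HES1 and HEY1.

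Of 6 TLE corepressor genes, 2 fell per LDN step (median slope -0.027), TLE2 (slope -0.18, SE 0.03, edgeR adjusted p = 0.000418) and TLE3 (slope -0.066, SE 0.02, adjusted p = 0.00909). At 42 h, 4 of the 5 TLE genes tested were higher than at 0 h, where 19.9% of all genes were, the largest being TLE3 (log2 2.63, edgeR adjusted p = 1.9e-14), which was at 135 and 134 CPM at 0 h and at 832 CPM at 42 h. Of 10 helix-loop-helix activators that HES proteins oppose, 3 were expressed enough for a test, and 1 rose per LDN step, TCF3, a general partner of these factors (slope 0.042, SE 0.013, adjusted p = 0.0399). All 7 BMP target genes fell per LDN step, with a median slope of -0.49, and all 7 were higher than at 0 h at 4 h, where 4.39% of all genes were. The HEY1 slope of -0.89 lay between those of SMAD6 (-0.92, SE 0.03) and BAMBI (-0.63, SE 0.07), and the HES1 slope of -0.37 between those of ID2 (-0.49, SE 0.03) and ID1 (-0.36, SE 0.04). HES1 and ID1 differed by less than their standard errors.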

How the data were processed

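RNA of the time series was depleted of ribosomal RNA and that of the dose response was selected for poly(A), after different extraction kits, so levels were not compared across experiments. After trimming (Cutadapt) and alignment by STAR 2.7.8a to GRCh38, the authors used RSEM 1.3.3 and deposited its expected counts (whole numbers, not scaled for depth) and FPKM. The ENSEMBL release and strandedness are not given in the sources used here. Of 61546 features, 5 were not human and were left out (at most 0.00301% of counts).

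Counts were tested with edgeR 4.0.16 (quasi-likelihood, TMM, mean of at least 1 CPM, Benjamini-Hochberg over all genes tested, threshold 0.05). Models had hours, time points, or LDN step (0 to 4) as terms. Alternatives used DESeq2 1.42.0, limma 3.58.1 on log2(FPKM + 0.1), other scalings, no filter, other dose scales, and each library left out. On simulated data with 200 changed genes of 4-fold over the range of times or doses, each of the 3 tests found 200. The hours, time point and LDN tests made 9, 6 and 13 false calls there. At 2-fold the hours, time point and LDN tests found 200, 192 and 196, with 10, 9 and 8 false calls. Whether as many would be found at the spread of the real libraries, or for fast steps, was not tested.

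Members were named by symbol, with all 10 described. For members averaging 10 CPM or more in an experiment the 3 most alike genes were named, and from each pathway list those past the LDN threshold, at most 4 a direction. The members and lists were chosen with earlier results of these data known. Intervals are exact Poisson at 95% and, like the floor of 3 counts, cover counting error only. No exon of a member overlaps an exon of another gene in GENCODE 44. HES5, HES6, HEY2 and HEYL each overlap a long noncoding RNA gene on the opposite strand, at most 1.93 CPM in any library. Sequences are from RefSeq. R 4.3.3, Python 3.11.15, scipy 1.17.1 and matplotlib 3.10.9 were used.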

Additional observations from a re-analysis of the deposited data

How the results depend on the processing

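No paired analysis was possible because the labels number replicates at 0 h only and every other group has 1 library. HES1, HEY1 and HEY2 kept their directions under every alternative run for the 42 h and LDN results. On library totals, which shift the median gene by -0.23 (log2) at 42 h, their 42 h ratios were 2.27, 4.19 and -1.27, and that of HEYL -1.56. The HES6 ratio reversed to 0.48 without 0 h replicate 2 and was -0.91 without 0 h replicate 1. Against LDN in nM, 0 members rose and 1 fell, with adjusted p of 0.0570 for HEY1 and 0.0587 for HEY2, and of all genes 79 rose and 312 fell. The HES6 slope was also lost with log10 of LDN (0.05) and with untreated cells added (0.0924). Without the filter, the hours line called 1 member rising and 2 falling, beside 3791 and 3048 of all genes. The time points called 7 members there, beside 7806 of all genes. Leaving out 1 library at a time gave 0 (without 42 h) to 2 (without 0 h replicate 1) falling members for hours. For all genes it gave 1839 (without 42 h) to 3436 rising and 1426 (without 42 h) to 3166 falling with hours, 3344 (without 42 h) to 5814 over time points, and 874 (without 0 nM) to 1423 rising per LDN step, with 994 without 300 nM. With FPKM, 2709 genes differed over time points in place of 5581, 415 rose and 692 fell per LDN step in place of 1556 and 1624, and 1006 were higher at 0 nM than untreated in place of 603. With untreated cells added, 1001 rose. With hours, 3072 rose and 2793 fell, but 2112 and 4072 on library totals and 2102 and 3750 with FPKM. The causes were not tested. Depth limits HES2, HES7 and HELT, with at most 32 counts in any library.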

Other observations

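Relatives of the family that were not among the 10 members also moved, in both directions. HES3, a HES gene known from neural and pluripotent stem cells (chromosome 1, 6244179 to 6245578, plus strand), was at 34.1 and 39.9 CPM at 0 h, 16.2 CPM at 4 h, 1.14 CPM at 12 h, 0.166 CPM at 20 h, 0.0698 CPM at 28 h and 0 counts at 42 h. Each library was lower than the one before, and HES3 was lower than at 0 h already at 4 h (log2 -1.20, SE 0.33, edgeR adjusted p = 0.00650). With LDN it was at 1.27 CPM at 0 nM, 2.98 CPM at 10 nM, 5.83 CPM at 30 nM, 9.58 CPM at 100 nM, 15.8 CPM at 300 nM, beside 25.6 CPM for untreated cells. HES3 rose per LDN step (slope 0.85, SE 0.05, edgeR adjusted p = 9.35e-08), and 1 of 14907 genes had a higher slope. At 300 nM it kept 40.2% of its 5 h difference, beside 52.3% for HEY2 and 7.97% for HES1. HES3 shares the direction of HEY2 at 4 h and under LDN, but at 42 h it had no counts while HEY2 was at 21.2 CPM.

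BHLHE40 and BHLHE41, repressors related to the family that act in the circadian clock and the response to low oxygen, fell per LDN step (slopes -0.31 and -0.35, SE 0.05 and 0.06, edgeR adjusted p = 0.000480 and 0.000965). By counts, both had risen at 4 h (log2 1.54 and 1.35). BHLHE41 did not show this in FPKM, with 1.90 and 0.62 at 0 h and 1.10 at 4 h. It was at 2.37 FPKM at 0 nM LDN and 2.84 FPKM in untreated cells. Exons of BHLHE40 overlap BHLHE40-AS1 and those of BHLHE41 overlap SSPN (at most 1.61 CPM), both on the opposite strand. The part of these overlaps was not tested. BHLHE40 and BHLHE41 parted later. BHLHE40 was at 6.11 and 4.41 CPM at 0 h and 56.4 CPM at 42 h, while BHLHE41 reached 6.27 CPM at 12 h. Its 42 h library, at 0.284 CPM, lay below both 0 h libraries at 1.56 and 1.23 CPM.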
